A study of Mus musculus with 6 samples.

Results

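The genes described here mark the peripheral nerve that runs through fat: Prx, Sox10, Mbp, Pmp22, Cdh19, Ncmap and Egfl8, 7 of the 15176 genes in the deposited table, chosen by name as genes of myelinating and non-myelinating Schwann cells and found there by their Ensembl identifiers. The RNA came from the inguinal fat pad (iWAT), a subcutaneous white fat depot, and all mice received a high-fat diet. The 4 Steap4f/f libraries (replicates 1, 2, 5 and 6) came from mice with a floxed Steap4 gene, and the 2 Steap4AKO libraries (replicates 2 and 3) from mice with an adipocyte-specific Steap4 deficiency. The diet was common to both groups. The Cre driver, age, sex and time on the diet are not given in the sources used here. No label says that each library is a separate mouse, so the p-values speak only for the spread among these 6 libraries, which may be technical.

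Schwann cells are the glia of peripheral nerves. Myelinating Schwann cells wrap a single large axon in compact myelin, whereas non-myelinating (Remak) cells hold bundles of thin axons, among them the sympathetic fibres that drive lipolysis and heat production in fat. The transcription factor Sox10 keeps the lineage in being and, together with Egr2, turns on the myelin genes. Nerve also runs beside and into skeletal muscle, which can come with a dissected fat pad, so the Schwann cell genes are set here against the muscle content of each library.

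Promoter sequence was used for 4 of the 7 genes, as RefSeq windows on GRCm38.p6 from 250 bases before to 50 bases after a transcription start. This count does not say that the remaining genes lack such a window. The windows of Prx, whose level was very low in Steap4AKO replicate 2, of Egfl8, the member that was lower in both Steap4AKO libraries, and the most upstream of the 4 windows of Pmp22, the member that varied least, are printed below to show the starts of genes that differed in their pattern. Capitals mark matches, on either strand, to the SOX words (AACAAT in the first place, then ACAAAG, and as the last of them ACAATG), to the EGR word GCGNGGGCG and to the CCAAT box, none of which contains another.
Prx (chr7:27499074-27499373, plus strand): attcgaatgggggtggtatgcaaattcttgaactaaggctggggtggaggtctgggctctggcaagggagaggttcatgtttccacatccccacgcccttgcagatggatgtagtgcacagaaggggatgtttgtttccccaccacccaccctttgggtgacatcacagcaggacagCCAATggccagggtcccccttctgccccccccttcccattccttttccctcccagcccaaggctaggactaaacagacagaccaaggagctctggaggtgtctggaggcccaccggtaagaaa
Egfl8 (chr17:34615922-34616221, minus strand): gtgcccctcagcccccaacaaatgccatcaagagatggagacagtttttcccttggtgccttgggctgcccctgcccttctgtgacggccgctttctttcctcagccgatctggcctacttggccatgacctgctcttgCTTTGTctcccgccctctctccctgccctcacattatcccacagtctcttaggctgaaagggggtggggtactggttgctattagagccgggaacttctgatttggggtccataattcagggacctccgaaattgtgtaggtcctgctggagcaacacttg
Pmp22 (chr11:63128732-63129031, plus strand): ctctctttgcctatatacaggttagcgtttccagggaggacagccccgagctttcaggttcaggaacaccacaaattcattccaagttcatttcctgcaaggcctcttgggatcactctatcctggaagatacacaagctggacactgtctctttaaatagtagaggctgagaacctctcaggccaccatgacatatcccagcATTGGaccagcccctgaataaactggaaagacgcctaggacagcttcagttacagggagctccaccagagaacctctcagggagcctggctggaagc
The Prx and Pmp22 windows each held 1 CCAAT, as did 37.4% of all 32851 windows, and the Egfl8 window held 1 SOX word, as did 33.2% of them. The EGR word was present in 5.55% of all windows and in none of these 3. A match describes these letters only.

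In short, 6 of the 7 genes had their lowest level in Steap4AKO replicate 2, where 24.3% of all tested genes did, while in Steap4AKO replicate 3 the same number lay inside the range of the 4 Steap4f/f libraries, as did 52.1% of tested genes. None of the 7 passed the test between genotypes. The test was limma on log2(value + 1) over the 15006 genes whose mean value reached 10, with Benjamini-Hochberg adjustment and a threshold of 0.05. Of these genes 0.473% passed, 0.433% lower and 0.04% higher in Steap4AKO. Values are the authors' normalized counts throughout, and a log2 difference is the Steap4AKO mean less the Steap4f/f mean of log2(value + 1). Scaling all libraries to the same total would move the median of all genes from 0.02 to 0.21 and every difference below with it.

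**Figure D1:**
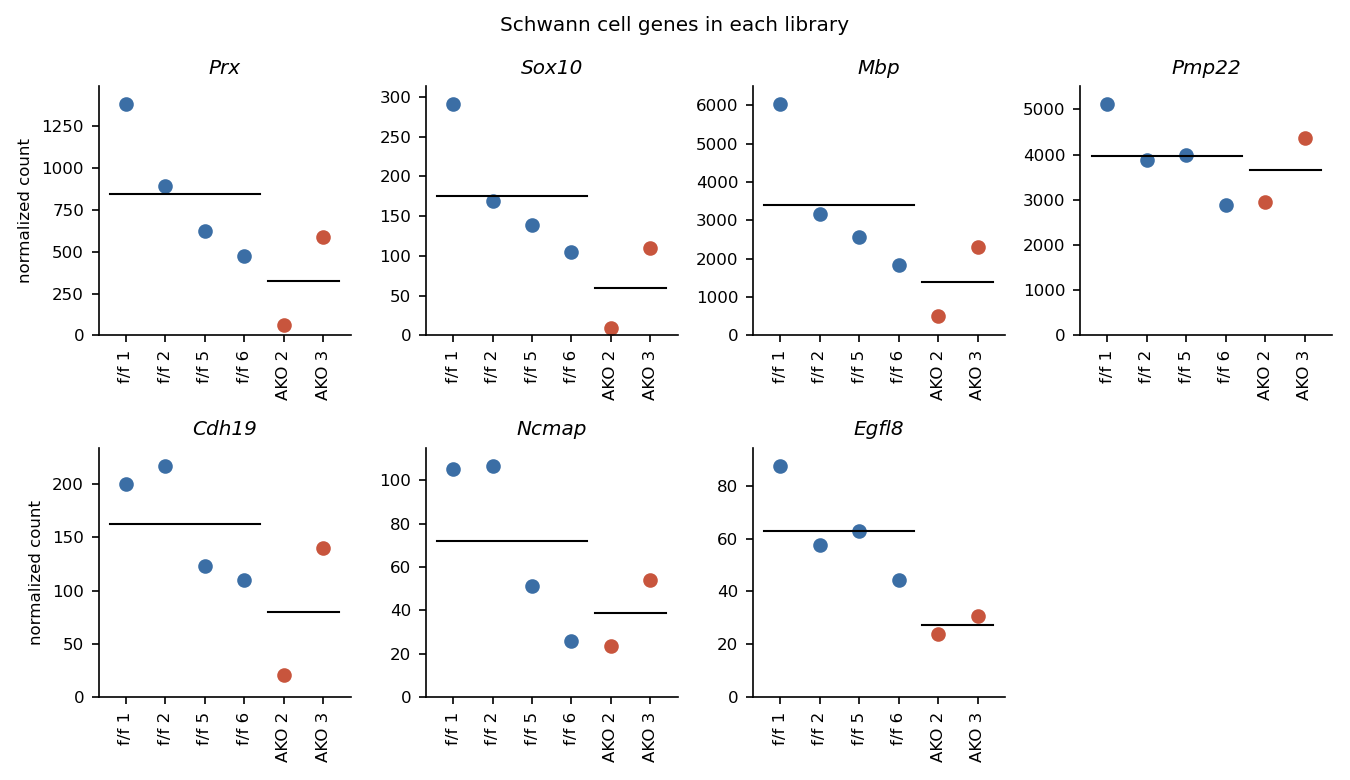
Normalized counts (linear axes from 0) of the 7 Schwann cell genes in each library; blue points are Steap4f/f replicates 1, 2, 5 and 6, red points Steap4AKO replicates 2 and 3, and horizontal lines the group means. Steap4AKO replicate 2 is the lowest point except for Pmp22, and replicate 3 lies among the blue points except for Egfl8.

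Prx encodes periaxin, a scaffold of the Schwann cell membrane that links myelin to the surrounding basal lamina through Drp2 and dystroglycan (ENSMUSG00000053198, chromosome 7, 27499324 to 27520214, GRCm38). Its normalized counts were 1377.8, 891.7, 625.6 and 473.4 in Steap4f/f replicates 1, 2, 5 and 6, and 64.3 and 588.6 in Steap4AKO replicates 2 and 3. The groups overlapped, since Steap4AKO replicate 3 stood above Steap4f/f replicate 6. The group means were 842.0 ± 397.0 (SD, n = 4) and 326.0 ± 371.0 (SD, n = 2), and the log2 difference of -1.99 (SE 0.79) did not pass (limma, adjusted p = 0.248).

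Sox10 itself had the lowest share of its control level of the 7 genes in Steap4AKO replicate 2 (ENSMUSG00000033006, chromosome 15, 79154908 to 79165240). The 4 Steap4f/f libraries had 290.5, 169.3, 139.1 and 104.7, and the Steap4AKO libraries had 10 and 110.0. Replicate 2 thus held 5.67% of the Steap4f/f mean and replicate 3 held 62.5%, within the Steap4f/f range. The log2 difference was -2.24 (SE 0.84; limma, adjusted p = 0.229).

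Mbp encodes myelin basic protein, which seals the cytoplasmic faces of compact myelin; the same gene (ENSMUSG00000041607, chromosome 18) also gives the golli transcripts, which are known from lymphoid and other cells, and a gene total does not separate the forms. Its Steap4f/f values were 6025.3, 3164.3, 2581.4 and 1842.7, and its Steap4AKO values 508.7 and 2302.6. Replicate 2 was again alone below the control range, at 14.9% of the Steap4f/f mean, and the log2 difference was -1.51 (SE 0.62; limma, adjusted p = 0.257).

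Prx, Sox10 and Mbp kept nearly constant proportions in 5 of the 6 libraries. The ratio of Prx to Mbp values was 0.229, 0.282, 0.242 and 0.257 in Steap4f/f and 0.256 in Steap4AKO replicate 3, and it was 0.126 in Steap4AKO replicate 2. The ratio of Sox10 to Prx ran from 0.19 to 0.222 in Steap4f/f and was 0.187 in Steap4AKO replicate 3 and 0.155 in replicate 2. These genes therefore moved together between the control libraries, and in Steap4AKO replicate 2 Mbp was reduced less than the other two.

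Pmp22 encodes a small membrane protein of compact myelin that is also made by fibroblasts and other cells (ENSMUSG00000018217, chromosome 11, 63128982 to 63159547). It had 5107.9, 3875.1, 3998.2 and 2879.8 among the controls, and 2943.2 and 4365.8 in the Steap4AKO libraries. Both Steap4AKO values lay inside the control range. The log2 difference was -0.12 (SE 0.25; limma, adjusted p = 0.83), and it was 0.07 with all libraries scaled to the same total, so that it had no stable direction. The ratio of Pmp22 to Mbp was 0.848 to 1.56 in Steap4f/f, 1.9 in Steap4AKO replicate 3 and 5.79 in replicate 2.

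Ncmap, a protein of non-compact myelin (ENSMUSG00000043924, chromosome 4, 135369576 to 135398227), had Steap4f/f values of 105.0, 106.6, 51.0 and 26.0 and Steap4AKO values of 23.3 and 53.8. It varied 4.1-fold among the control libraries, the widest range of the 7 genes, and Steap4AKO replicate 2 lay just below the lowest of them. The log2 difference was -0.79 (SE 0.66; limma, adjusted p = 0.553).

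Cdh19, a cadherin of the Schwann cell lineage (ENSMUSG00000047216, chromosome 1, 110888326 to 110977584), had Steap4f/f values of 200.3, 217.0, 123.0 and 109.7, beside 20.2 and 140.3 in the Steap4AKO libraries. As with Prx, Sox10 and Mbp, replicate 2 was far below every other library and replicate 3 was among the controls. The log2 difference was -1.52 (SE 0.70; limma, adjusted p = 0.3).

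Egfl8, a secreted protein with EGF-like repeats (ENSMUSG00000015467, chromosome 17, 34613349 to 34615971), differed from the other 6 in that both Steap4AKO libraries, at 23.8 and 30.5, were below every Steap4f/f library, at 87.5, 57.4, 62.8 and 44.3. Of all tested genes 14.4% were lower in this way, so that 1 of 7 is close to the background. The log2 difference of -1.15 (SE 0.42) did not pass (limma, adjusted p = 0.215). Egfl8 overlaps Agpat1 on the opposite strand, and because no source used here gives the strand setting of the counting, reads of the shared stretch cannot be told apart. The Agpat1 values were 1727.1 to 1903.5 among the controls, above the 1378.3 and 1373.9 of the Steap4AKO libraries.

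Compared per kilobase of merged exons in GENCODE M21, the Steap4f/f level was highest for Pmp22, at 1684 ± 387 (SD, n = 4), followed by Mbp at 402 ± 216, Prx at 151 ± 71.1 and Sox10 at 57.7 ± 26.5. Cdh19 at 38.0 ± 12.6, Egfl8 at 35.8 ± 10.3 and Ncmap at 32.4 ± 18 did not differ beyond their spread. The merged length counts exons of all annotated transcripts and so understates the level of a gene such as Mbp that mostly uses short forms.

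With all 7 genes together, the median log2 difference was -1.51, against 0.02 over all tested genes. Taken singly against the Steap4f/f mean, the Steap4AKO libraries gave -2.60 (replicate 2) and -0.40 (replicate 3). In 4 of the 7 genes, Prx, Sox10, Mbp and Cdh19, replicate 2 was below 50% of every other library, which held for 2.6% of tested genes. Unadjusted p-values were under 0.05 for Prx, Sox10, Mbp and Egfl8, 4 of the 7, as for 2717 of the 15006 genes. Without Steap4AKO replicate 2 no member passed, and 0.00685% of genes did, while without Steap4AKO replicate 3 Prx, Sox10 and Cdh19 passed (limma, adjusted p = 0.0382, 0.0345 and 0.0441), where 5.47% of genes did and the lone Steap4AKO library is assumed to vary like the controls. In whole tissue, fewer Schwann cells and less RNA per Schwann cell cannot be told apart.

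The wider list of peripheral myelin genes, which includes Prx, Mbp, Pmp22 and Ncmap, shared the pattern in part. Of 21 listed genes 20 were measured, 18 of them with a lower mean log2 value in Steap4AKO (16 without Steap4AKO replicate 2), with a median of -0.89 (-1.45 and -0.39 in the single Steap4AKO libraries), and none passed the test, with 7 under an unadjusted p of 0.05 in limma. Of all tested genes 2717 of 15006 were under that unadjusted p in limma, which is the background for this list and those below.

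Several other genes of the myelin list were also low in Steap4AKO replicate 2. Drp2, the dystrophin-related partner of periaxin, had 33.6 and 271.4 in the Steap4AKO libraries, against 195.5 to 619.7 among the controls. Cldn19, a claudin of Schwann cell tight junctions, had 11.2 and 100.7 against 68.3 to 284.0. Fa2h, which makes the hydroxylated fatty acids of myelin lipids, had 11.5 and 45.2 against 41.2 to 112.1. In 9 of the 20 measured myelin genes, Prx and Mbp among them, Steap4AKO replicate 2 was below 50% of every other library, as in 2.6% of tested genes.

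Other myelin genes shared it less or not at all. Cnp was lower in both Steap4AKO libraries by a smaller amount, at 518.1 and 581.3 against 610.2 to 835.8 in Steap4f/f. Its log2 difference was -0.42 (SE 0.17; limma, adjusted p = 0.258). Pllp had 162.9 and 120.3 against 124.6 to 221.0. Gjb1, a connexin of myelin that epithelia also make, was highest in Steap4AKO replicate 2, at 104.3 against at most 28.8 elsewhere. Tspan2, a tetraspanin, was higher in both Steap4AKO libraries, at 566.9 and 424.8 against 237.7 to 341.9, without passing the test (log2 difference 0.88, SE 0.23; limma, adjusted p = 0.124).

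**Figure D2:**
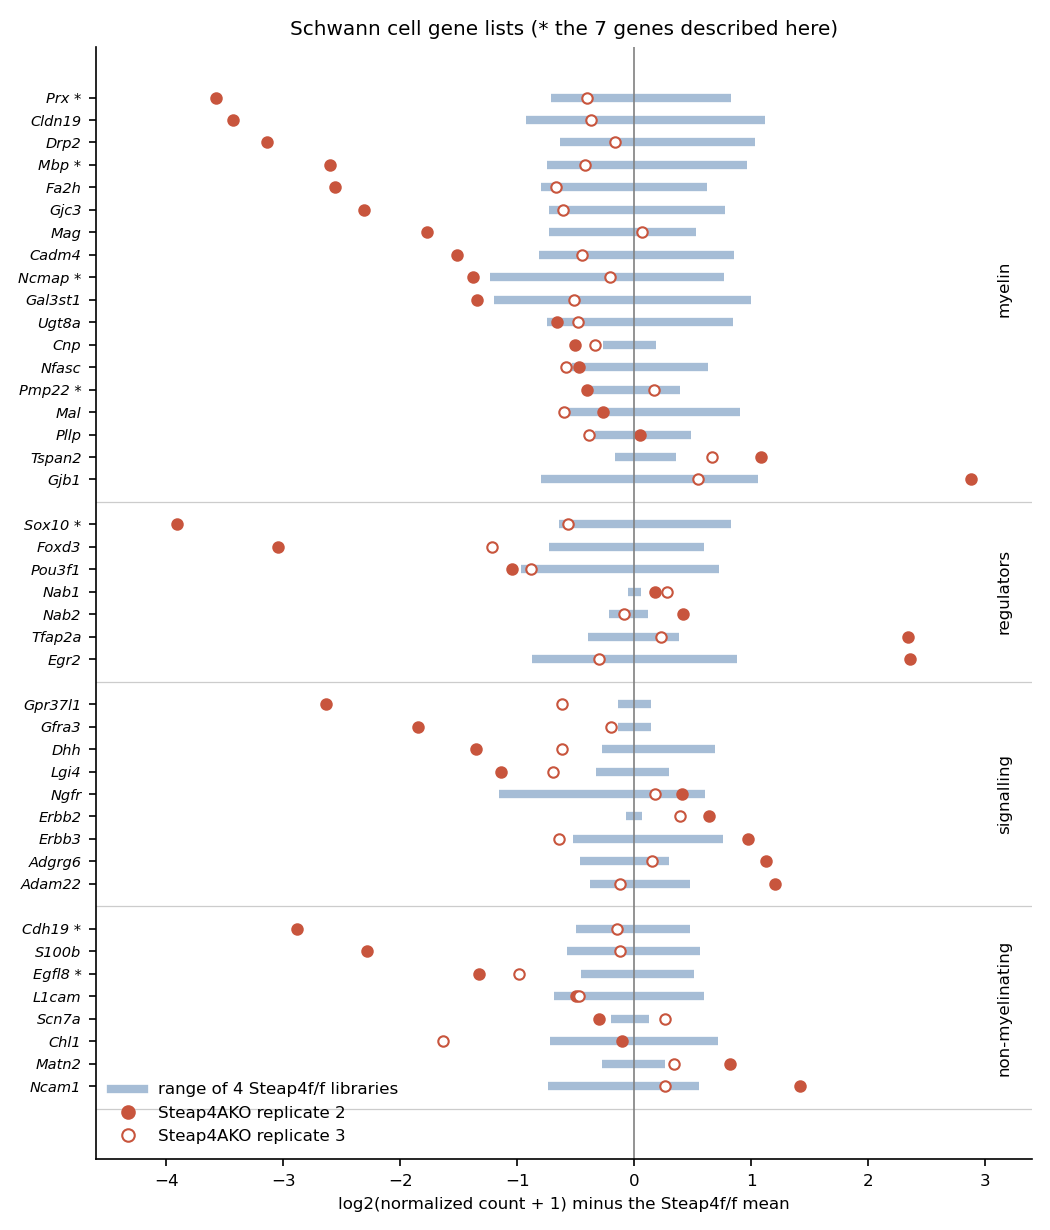
Each row is a gene named from the Schwann cell lists, with Gfra3 and Ngfr drawn once, and the horizontal axis is log2(normalized count + 1) minus the Steap4f/f mean: bars span the 4 Steap4f/f libraries, filled points are Steap4AKO replicate 2 and open points replicate 3. Filled points reach far to the left for Sox10, Prx and Cldn19 and to the right for Gjb1 and Egr2. Most open points lie on or near the bars, and those of Chl1, Egfl8, Foxd3 and Gpr37l1 lie furthest to the left of them.

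The regulators of the lineage, a list that includes Sox10, were split. Of 10 listed 7 were measured, 3 with a lower and 4 with a higher mean log2 value, and none passed the test, with 2 under an unadjusted p of 0.05 in limma; without Steap4AKO replicate 2 there were 5 lower. Foxd3, a factor of the neural crest and early glia, had 4.3 and 17.9 in Steap4AKO against 25.4 to 65.4 in Steap4f/f, so that the groups did not overlap (log2 difference -2.13, SE 0.67; limma, adjusted p = 0.179). Egr2, which drives myelination with Sox10 and is also induced in macrophages, had control values of 98.4, 110.4, 31.9 and 35.6, and Steap4AKO values of 308.9 and 48.1. Sox10 was thus lowest and Egr2 highest in the same library. Its macrophage markers, 8 genes that were all measured, summed to 26972, against 8605 to 9773 in Steap4f/f and 8233 in Steap4AKO replicate 3, and their part in the Egr2 value was not tested.

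Among signalling genes of Schwann cells 9 of 11 were measured, 4 with a lower and 5 with a higher mean log2 value, and none passed, with 4 under an unadjusted p of 0.05 in limma. Lgi4, a secreted ligand that promotes myelination, had 97.4 and 132.7 in Steap4AKO against 172.0 to 264.8 in Steap4f/f, without overlap (log2 difference -0.92, SE 0.26; limma, adjusted p = 0.155). Dhh, the hedgehog ligand by which Schwann cells direct the formation of the perineurium, had 37.1 and 62.5 against 79.6 to 156.4, and Gpr37l1, a receptor of glia, had 7.8 and 34.7 against 48.7 to 59.4. Erbb2, the kinase partner of Erbb3, lay the other way without overlap, at 404.7 and 340.4 against 247.4 to 271.7 (log2 difference 0.51, SE 0.18; limma, adjusted p = 0.204). Erbb3, the neuregulin receptor that Schwann cells share with epithelia, had Steap4AKO values of 238.1 and 77.0, one on each side of the control range of 83.9 to 205.9.

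The non-myelinating list, which includes Cdh19 and Egfl8, had 10 of 12 genes measured. Of these, 7 had lower and 3 higher mean log2 values, with a median of -0.68 (-0.40 and -0.13 in the single Steap4AKO libraries). None passed the test, and 2, Egfl8 and Matn2, were under an unadjusted p of 0.05 in limma. S100b, a calcium-binding protein of Schwann cells that adipocytes make as well, had 33.7 and 154.6 in Steap4AKO against 112.6 to 248.5 in Steap4f/f. Scn7a, a sodium channel of non-myelinating Schwann cells among other cells, had 2029.5 and 3002.1 against 2175.6 to 2730.9. Matn2, a matrix protein, was higher in both Steap4AKO libraries, at 2316.1 and 1661.2 against 1086.4 to 1580.1 (log2 difference 0.58, SE 0.22; limma, adjusted p = 0.228). Ncam1, the neural cell adhesion molecule, had 116.9 and 51.8 against 25.5 to 63.7, and Chl1, a related adhesion molecule, 41.3 and 13.7 against 26.7 to 73.8. Scn7a in replicate 2 was thus close to its control range, where Cdh19 of the same list was at 12.4% of its control mean.

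No gene of the axon, perineurium or neurotrophic lists passed the test. Of 17 axon and neuron genes 6 were measured, with none past the test and none under an unadjusted p of 0.05 in limma. The 3 with the smallest p were Slc18a2, the vesicular monoamine transporter, at 16.4 and 25.7 in Steap4AKO against 30.2 to 69.6 in Steap4f/f, Uchl1, a ubiquitin hydrolase of neurons and some epithelia, at 268.9 and 63.9 against 23.4 to 81.0, and Stmn2, a stathmin of growing axons, at 77.1 and 90.4 against 39.2 to 73.7. The 4 perineurial genes, among them Cldn1, Slc2a1 and Itgb4, had a median of -0.17, with none past the test and none under an unadjusted p of 0.05 in limma. Cldn1, a barrier claudin, had 47.0 and 68.3 against 62.4 to 141.2, Slc2a1, a glucose transporter, had 322.2 and 340.1 against 183.6 to 305.6, and Itgb4, an integrin, had 442.4 and 478.0 against 405.7 to 773.7. Of 14 neurotrophic ligands and receptors 11 were measured, with a median of -0.10, none past the test and none under an unadjusted p of 0.05 in limma. The 3 with the smallest p were Ret, the signalling receptor of the GDNF family, at 808.8 and 1015.6 against 241.7 to 794.6, Gfra2, a co-receptor of Ret, at 149.5 and 118.7 against 70.4 to 121.1, and Ntf3, a neurotrophin, at 22.8 and 84.3 against 58.2 to 92.0.

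The Schwann cell genes and muscle ran in different orders among the control libraries. A muscle index, the mean over 16 skeletal muscle fibre genes of each value as a percentage of its control mean, was 26.0, 110.0, 80.5 and 183.0% for Steap4f/f replicates 1, 2, 5 and 6. For Steap4AKO replicates 2 and 3 it was 0.541 and 4.61%. The same index over the 7 Schwann cell genes was 149.0, 109.0, 82.3 and 59.5% for the controls, and 26.4 and 74.2% for Steap4AKO. In Steap4AKO replicate 2 the single genes ran from 5.67% for Sox10 to 74.2% for Pmp22, which raised this mean. The control library with the least muscle therefore had the highest nerve index, and the one with the most muscle had the lowest. Between them, replicate 2 was above replicate 5 in both indices. The muscle index of replicate 6 was raised by single genes, such as Myh7 at 398% of its control mean. Tnnc2, Tnni2 and Tnnt3 were highest in replicate 2, and the remaining muscle genes were highest in replicate 6. Whether nerve came with muscle was not tested.

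Gene by gene the order of the Schwann cell levels was alike. In all 7 genes Steap4f/f replicate 6, with the highest muscle index, was the lowest control library, as it was for 25.4% of tested genes. In 5 of 7 replicate 1 was the highest, as for 30.3%. Prx, Sox10 and Mbp followed the full order of replicates 1, 2, 5 and 6, from high to low, which 6.1% of tested genes did, and so did 9 of the 20 measured myelin genes, Prx and Mbp among them. The 4 libraries of 1 genotype are too few for a correlation, and the libraries of the other genotype form a separate group in muscle content, so none was computed.

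Steap4AKO replicate 3 had 21.7-fold less muscle than the Steap4f/f mean, whereas its nerve index was 74.2% and 6 of its 7 Schwann cell genes were within the control range. Ckm, the muscle creatine kinase, was at 1525.8 there against 15911.9 to 81342.5 in Steap4f/f, while Prx was at 588.6 against 473.4 to 1377.8. Steap4AKO replicate 2 was lowest in both, with Ckm at 397.1 and Prx at 64.3. Genes of the muscle side of the neuromuscular junction, where terminal Schwann cells sit, were measured for 7 of 9; none passed the test, and 2 had an unadjusted p under 0.05 in limma. Rapsn, which clusters acetylcholine receptors, had Steap4AKO values of 2.3 and 7.4, against 43.0 to 110.9 (log2 difference -3.69, SE 0.64; limma, adjusted p = 0.0536), Musk, the receptor kinase of the junction, had 2.0 and 10.5 against 9.5 to 38.9, and Lrp4, its co-receptor, had 155.6 and 68.8 against 24.8 to 68.9. Rapsn was thus low in both Steap4AKO libraries, unlike the Schwann cell genes apart from Egfl8.

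**Figure D3:**
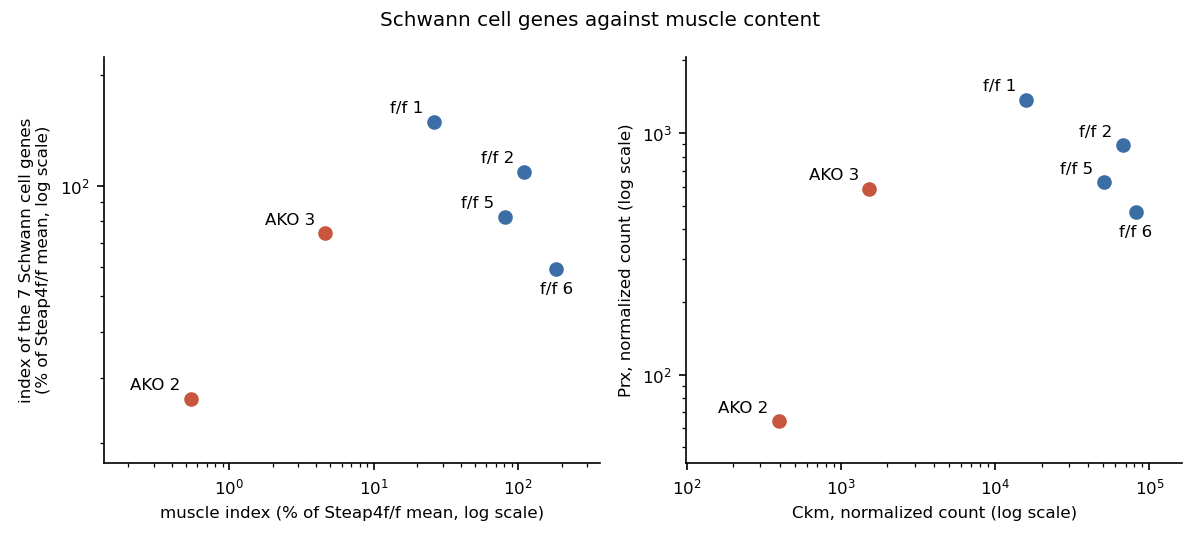
Left, the index of the 7 Schwann cell genes against the muscle index, both in percent of the Steap4f/f mean; right, Prx against Ckm in normalized counts; all axes are logarithmic and each point is a library (blue Steap4f/f, red Steap4AKO). Among the blue points replicate 1 has the least muscle and the highest nerve level, and Steap4AKO replicate 3 has a muscle index of 4.61% beside a nerve index of 74.2%.

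With the log2 muscle index as a covariate, the log2 differences of Prx, Sox10, Mbp, Pmp22, Cdh19, Ncmap and Egfl8 were -0.23, -0.31, -0.93, -0.29, 0.52, -1.12 and -1.70, and none passed (limma, adjusted p from 0.696 to 0.981), where 0.00666% of genes did. This index correlated with genotype at -0.91 over the 6 libraries, and the SE of Prx grew from 0.79 to 1.85, so that muscle content and genotype cannot be told apart in that fit. With the muscle index entered on the linear scale, the same differences were -2.79, -3.01, -2.44, -0.61, -1.91, -1.86 and -1.73, each further from 0 than without a covariate, and none passed (limma, adjusted p from 0.268 to 0.424). The result of adjusting for muscle thus depended on the scale of the index.

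Steap4AKO replicate 2 also stood apart in markers of other cells, where 6.48% of tested genes exceeded 2 times their level in each of the other libraries. Of 8 epithelial markers 6 were measured, and they summed to 2081 there, against 30.1 to 85.9 in Steap4f/f and 50.8 in Steap4AKO replicate 3, where Krt14 and Epcam were listed at 0. The 6 mesothelial markers summed to 2153, against 57.4 to 443.0 in Steap4f/f and 24.4 in replicate 3, and the 8 mural cell markers to 42403, against 13876 to 17640 and 21988. Smooth muscle genes made up most of that sum, Myh11 at 15119.8 against 757.5 to 1357.1 and Acta2 at 10482.1 against 1635.7 to 3788.3. The pericyte genes differed in direction there. Cspg4, at 1518.4 against 3080.4 to 3601.7, and Abcc9, at 1275.4 against 1358.6 to 1517.1, were below the control range. Rgs5, Kcnj8 and Pdgfrb were above it. They had 6331.8, 599.0 and 2250.5, against 3301.3 to 5589.2, 260.2 to 475.7 and 1570.8 to 1977.1. The 7 measured of 8 B and T cell markers summed to 456.0, against 40.8 to 151.0 and 85.0. The 8 adipocyte markers were abundant in every library, and summed to 283985 in Steap4AKO replicate 2, against 391184 to 441953 in Steap4f/f and 399304 in replicate 3. The 8 endothelial markers summed to 25422 and the 8 stromal progenitor markers to 34815 there, against 22311 to 24507 and 29829 to 46540 in Steap4f/f and 28903 and 32962 in replicate 3. The part of these markers in the low Schwann cell levels was not tested. The melanocyte genes Pmel and Dct, of another lineage with Sox10, lay between 4.5 and 36.2 in all libraries. Steap4 itself had a control mean of 10899 ± 4104 (SD, n = 4) and a Steap4AKO mean of 8163 ± 211.0 (SD, n = 2; log2 difference -0.35; limma, adjusted p = 0.544), so that its level in whole tissue, where other cells express it, did not check the labels.

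**Figure D4:**
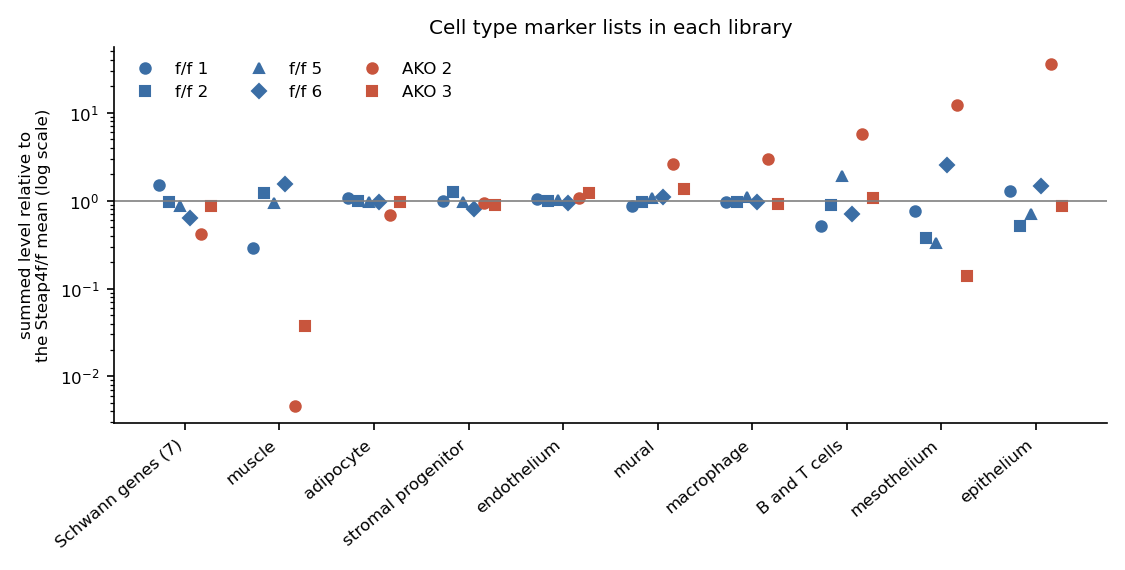
Summed normalized counts of the measured genes of each marker list, relative to the Steap4f/f mean on a log axis, with 1 symbol per library (blue Steap4f/f, red Steap4AKO). The red circle, Steap4AKO replicate 2, is low for Schwann cell and muscle genes and high for macrophage, lymphocyte, mesothelial and epithelial genes, whereas the red square, replicate 3, is low for muscle and for mesothelium.

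The 5 genes outside the 7 whose log2 values were most like the mean centred log2 profile of the 7 over the 6 libraries, among 12352 genes with a mean of at least 50, were Loxl1, Slc7a10, Gm454, Lgals3bp and Cntf, with Pearson correlations from 0.99 to 0.996. With so many genes and 6 libraries, of which Steap4AKO replicate 2 lay far from the rest, such values describe the order and give no test. Cntf, the ciliary neurotrophic factor that myelinating Schwann cells are known to make, had control values of 134.6, 80.6, 61.2 and 51.0, and Steap4AKO values of 14.4 and 69.3. It overlaps Zfp91 on the same strand, which had 2904.5 to 4040.8 among the controls, with 3043.2 and 3253.3 in the Steap4AKO libraries. Cntf was the last of the 5 in rank. Loxl1, a lysyl oxidase and the first in rank, had a far smaller range, from 2694.9 to 3146.9 in Steap4f/f with 2130.0 and 2824.7 in Steap4AKO. Slc7a10 had 3736.2 to 4889.4 in Steap4f/f with 2450.4 and 3935.8 in Steap4AKO. Lgals3bp had 9004.0 to 10956.4 with 6547.5 and 9677.3, and Gm454 156.6 to 200.3 with 101.8 and 160.8. Drp2 ranked at place 14 and Cldn19 at place 25 by this measure.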

How the data were processed

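The deposited values, 1 column per library and 15176 genes, are a normalized signal that the authors made by dividing gene counts by DESeq2 size factors, as the table's own name has it. The submitters' processing notes list STAR (2.7.0e), RSEM (1.3.3), the authors' DESeq2 (1.12.4), R (4.2.0), mm10 and GRCm38, without saying what each was used for. Annotation and strand setting are not stated in those notes.

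The value of 1 read, seen as the step between low values, was 0.71 in Steap4AKO replicate 2 and 0.99 to 1.19 in the other libraries, which puts depth at roughly 15.9 to 23.2 (in units of 1e6 reads). In Steap4AKO replicate 2, the deepest by this estimate, odd multiples made up 51.7% of the near-whole values, which a step of double the size would not give. With 46.6 to 58.0% of values under 30 lying within 0.1 of a whole read, whole reads were not recovered and no count test was run. Symbols, for 15125 genes, came from GENCODE M21.

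Differences were tested two-sided with limma 3.58.1 in R 4.3.3, with a variance trend and a 2-group design over the 6 libraries. On simulated data for this comparison, with 15006 genes, the fit recovered 34.0% of 2-fold and 75.8% of 4-fold changes with 5.2 false calls per run. The simulated noise was normal with no outlying library, the largest spreads were capped, and changes were placed in genes with a mean of at least 50. Recovery for genes with an outlying library, such as Prx and Sox10, was therefore not measured. No gene had the same nonzero value in any pair of libraries. The members and gene lists were chosen with earlier results of these data known. Named genes were the 7 members, genes of the 4 Schwann cell lists, Steap4, Ckm, the 3 genes of smallest p in the other nerve lists, and the 5 most alike; other genes were chosen after their values were seen. Some list genes are counted in the lists and not reported here by name. Protein sequences were not used here. Alternatives are given in the closing section. Figures used matplotlib 3.10.9 under Python 3.11.15.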

Additional observations from a re-analysis of the deposited data

Results flagged for a closer look

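In the 4 Steap4f/f libraries, 3 of 50 values examined had 1 library far from the others by Dixon's 95% criterion, which chance alone meets in about 1 in 20. Dhh, the Schwann cell hedgehog ligand, was at 156.4 in replicate 1 against 79.6 to 84.6 in the others. Myh7, a slow muscle myosin, was at 7619.5 in replicate 6 against 0 to 44.5. Steap4 was at 17017.9 in replicate 1 against 8310.0 to 9417.2.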

How the results depend on the processing

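Over 17 alternatives, 112 of 119 values of single members kept their direction and their side of the threshold. Pmp22 changed sign with equal column totals (0.07), with Steap4f/f replicate 1 left out (0.02) and with Steap4AKO replicate 2 left out (0.17), and Cdh19 with the log2 muscle index as covariate (0.52). Leaving out 1 library at a time gave log2 differences of -3.58 to -0.40 for Prx, -3.91 to -0.57 for Sox10, -2.60 to -0.42 for Mbp, -0.40 to 0.17 for Pmp22, -2.89 to -0.15 for Cdh19, -1.38 to -0.21 for Ncmap and -1.33 to -0.98 for Egfl8. Prx, Sox10 and Cdh19 passed without Steap4AKO replicate 3, at -3.58, -3.91 and -2.89. In all 7 the lowest value came without Steap4AKO replicate 3 and the highest without Steap4AKO replicate 2, which Egfl8 also reached without Steap4f/f replicate 1. The count of members past the threshold ranged from 0 to 3, and the median of the 7 from -2.60 to -0.40, and it was -0.31 with the log2 muscle index and -1.91 with the linear one. The count of members lower without overlap ranged from 1 to 6, with 4 without Steap4f/f replicate 6. The 6 came without Steap4AKO replicate 3, where it counts the members that were lowest in Steap4AKO replicate 2. Among all 6 libraries 24.3% of tested genes were lowest in that library. The share over all genes was not computed for the settings with a library left out. The number of all genes past the threshold, 71, ranged from 1 to 821 with a library left out (821 without Steap4AKO replicate 3, 238 without Steap4f/f replicate 1 and 1 without any other), and was 1 with a pseudocount of 0.5, with a mean of at least 50 and with either muscle covariate, 123 with a pseudocount of 5, 13 without the variance trend and 119 with array weights; the cause was not tested. Median-of-ratios scaling left the members' values unchanged to the digits given. The counts of list genes with lower values without either Steap4AKO library were added after seeing the data. No paired analysis was possible because the groups share 1 replicate number. Counting error weighs most on the lowest values, such as Sox10 in Steap4AKO replicate 2.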
